A study of Mus musculus with 8 samples.

Results

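The 30 genes described here build cholesterol or set how much of it a cell makes and takes up. They were named by function: enzymes of the mevalonate and sterol pathway, the SREBP transcription factors and the proteins that hold, carry and cut them, and regulators of sterol transfer and of the LDL receptor. A gene counted as measured when a probe set of the array carried its symbol and no other, and the probe set with the highest mean over the 8 arrays stood for it. By that rule 28 of the 30 were measured, out of 19938 genes tested. The cytosolic thiolase Acat2 and the SREBP protease Mbtps2 were not analysed here.

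The arrays hold RNA of microglia, the macrophages that live in the brain, from 17-week-old mice of the Swiss Webster strain. There were 4 arrays with the genotype label MFP2 knockout and 4 control arrays with the genotype label wild type, and all 8 animals are labelled female. No treatment was given in either group, and the labels name no promoter or Cre line, and nothing in them tells whether cells other than microglia also lacked the gene. Cells were sorted for high CD11b and intermediate CD45 from whole perfused brain. MFP2, the product of Hsd17b4, carries out hydration and dehydrogenation steps of beta-oxidation inside peroxisomes. Replicates are numbered in the labels without a statement that each was 1 animal of its own; the p-values therefore cover the spread of these samples, which may be partly technical.

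Cholesterol is made from acetyl-CoA. The early enzymes produce mevalonate and turn it into isoprenoid units, which are joined to squalene, folded into lanosterol and trimmed in the endoplasmic reticulum to cholesterol. When sterols run low in that membrane, the escort protein Scap carries the SREBP precursor to the Golgi, where proteases release a fragment that enters the nucleus and switches on nearly every enzyme of the route. Insig1 and Insig2 hold Scap back when sterols are plentiful. SREBP2, made from Srebf2, acts mainly on cholesterol genes, while SREBP1, made from Srebf1, acts mainly on fatty acid genes. In the adult brain cholesterol is made locally, because lipoproteins of the blood do not cross the blood-brain barrier.

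Values are on the log2 scale throughout, a difference is MFP2 knockout minus control, and "rose" or "fell" marks a limma adjusted p under 0.05 over all 19938 genes. The values of a group are listed in the order of its replicate numbers. The targeted gene Hsd17b4 lay at 8.83, 9.09, 8.15 and 7.82 in controls and at 4.76, 7.20, 5.21 and 5.20 in knockouts, 7.35-fold lower on average (adjusted p = 0.00158). The groups did not overlap, but knockout 2 kept the highest level of the knockouts. The labels do not place the array's probe set for Hsd17b4 relative to the deleted sequence. Over all genes control 3 was the control nearest to the knockouts, at -9.62 on the first principal component (48.7% of the variance) against -24.7 to -23.2 for the other controls and 12.4 to 30.2 for the knockouts. Control 1 went against its female label, with Xist at 6.80 against 10.8 to 11.0 in the other controls and the Y-linked Eif2s3y at 8.14 against 2.78 to 2.99. For the 28 measured genes, results that rest on these arrays are given with and without them. Hsd17b4, the other gene lists, the markers and the medians per array are given with every array only. In bulk samples, fewer cells of a type and less RNA per cell cannot be told apart.

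In MFP2 knockout microglia 4 of the 28 genes rose and 2 fell. The risers were Dhcr7 and Sc5d, enzymes of the last steps of cholesterol synthesis, the mevalonate pathway kinase Pmvk and the SREBP brake Insig1, by 1.36-fold to 1.56-fold. The fallers were Lbr, a sterol reductase that is also a receptor for lamins, and Mylip, which marks the LDL receptor for breakdown, by 1.71-fold and 1.69-fold. Over all genes tested, 5.38% rose and 4.17% fell, against 4 and 2 of 28 here. Most differences were small and positive: 22 of the 28 were above 0, with a median of 0.23, while over all genes 44.2% were above 0 and the median was -0.02. The groups did not overlap for 8 genes higher and 4 lower, where 7.09% of all genes lay wholly higher and 6.92% wholly lower. An unadjusted p under 0.05 was reached by 12 of the 28 genes above 0 and 4 below, and by 2063 and 2133 of all 19938 genes.

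Without control 1, 3 genes rose (Insig1 was lost) and 2 fell. The count of risers was 4 without control 3 and knockout 2 (Hsd17b7 in place of Insig1). It was 2 (Dhcr7 and Pmvk) when control 1 was left out with them. The count of fallers was 4 without control 3, when Ggps1 and Insig2 were added. The values just inside and just outside the threshold were those of Insig1 (adjusted p = 0.0417) and of Ggps1 (adjusted p = 0.05004).

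**Figure D1:**
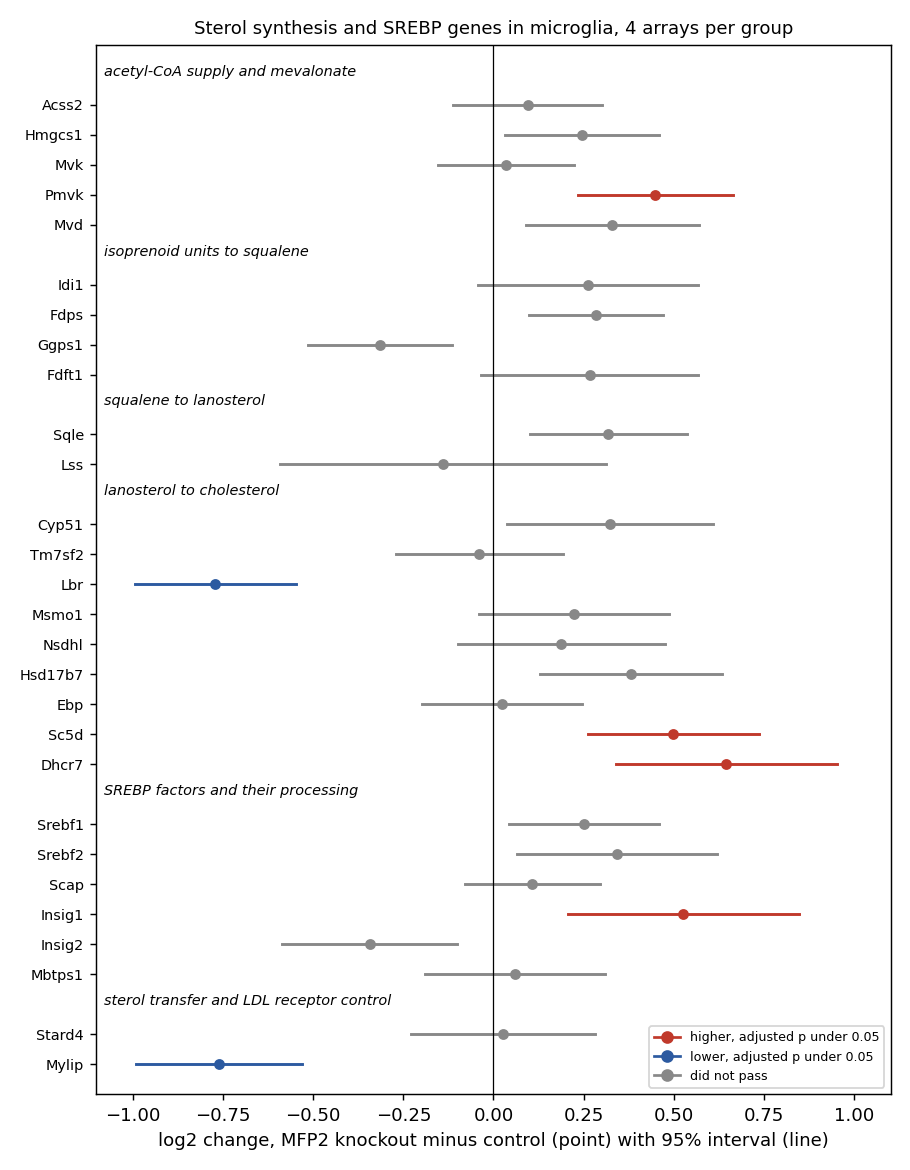
Log2 change (MFP2 knockout minus control, horizontal axis) of the 28 measured genes in the order of the pathway, as points with 95% intervals of the limma fit as lines; red genes rose, blue genes fell and grey genes did not pass. Most points lie between 0 and 0.50, and Lbr at -0.77 and Mylip at -0.76 stand apart on the left.

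The promoters of these genes carry a feature that the naming rule did not use. A window of the 250 bases before the transcription start, from RefSeq on the GRCm38.p6 assembly, was found for 24 of the 28 measured genes, in 32 windows because some genes have several starts. The motif CCAAT, read on both strands and known as the binding site of NF-Y, a partner of SREBP, was present in 22 of these 24 genes (91.7%) and in 38.8% of the 15614 tested genes with a window. Among genes with a single window it was in 18 of 19 members (94.7%) and in 35.9% of tested genes. The tested genes include dim ones, and the share among genes of a similar level was not counted. Scap and Mbtps1 held no CCAAT. The motif TCACNCCAC, a form of the sterol regulatory element with no overlap with CCAAT, was found on either strand in 1 of the 24 members (4.17%), Hmgcs1, and in 1.20% of tested genes. Both motifs are descriptions of letters, and NF-Y and SREBP binding was not measured. Stretches of the 6 genes that changed and of Hmgcs1 are shown because they show how the motif sits in genes that rose, in genes that fell and in the member with both motifs. They read 5′ to 3′ on the gene's strand, with CCAAT, its reverse complement ATTGG and the sterol element in capitals.
Dhcr7, rose, chr7:143830109-143830189, plus strand, 105 to 25 bases before the third of its starts: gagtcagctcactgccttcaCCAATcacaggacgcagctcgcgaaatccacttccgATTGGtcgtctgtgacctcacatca
Sc5d, rose, chr9:42264301-42264344, minus strand, 44 to 1 bases before the start: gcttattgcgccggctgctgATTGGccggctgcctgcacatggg
Pmvk, rose, chr3:89454385-89454429, plus strand, 156 to 112 bases before the first of its starts (no CCAAT before the other): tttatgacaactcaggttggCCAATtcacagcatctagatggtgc
Insig1, rose, chr5:28071176-28071220, plus strand, 236 to 192 bases before the start: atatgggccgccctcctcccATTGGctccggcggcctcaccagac
Lbr, fell, chr1:181842405-181842489, minus strand, 88 to 4 bases before the start: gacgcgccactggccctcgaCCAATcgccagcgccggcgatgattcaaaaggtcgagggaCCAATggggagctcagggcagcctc
Mylip, fell, chr13:45389532-45389699, plus strand, 210 to 43 bases before the start: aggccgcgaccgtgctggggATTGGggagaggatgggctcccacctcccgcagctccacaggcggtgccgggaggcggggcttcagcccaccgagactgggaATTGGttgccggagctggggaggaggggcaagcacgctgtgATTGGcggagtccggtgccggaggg
Hmgcs1, did not pass, chr13:119690101-119690330, plus strand, 250 to 21 bases before the start: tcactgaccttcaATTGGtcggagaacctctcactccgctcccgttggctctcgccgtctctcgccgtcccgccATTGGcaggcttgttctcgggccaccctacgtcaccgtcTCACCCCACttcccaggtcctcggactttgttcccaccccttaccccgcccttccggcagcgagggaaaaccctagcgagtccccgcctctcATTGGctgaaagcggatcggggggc
CCAAT was in all 4 genes that rose, in both that fell and in 16 of the 18 with a window that did not pass. A gene was counted if any of its windows held the motif, and at Dhcr7 only the window of the third start did.

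At the mevalonate steps, Pmvk was the gene that rose. It encodes phosphomevalonate kinase, which adds the phosphate group that follows the reaction of Mvk. It lay at 7.01, 6.78, 6.69 and 6.83 in controls and at 7.30, 7.10, 7.38 and 7.32 in knockouts. Every knockout array was above every control array, with a gap of 0.089 between knockout 2 and control 1. The change was 0.45 ± 0.10 (SE), or 1.36-fold (adjusted p = 0.0126), and it stayed under an adjusted p of 0.05 in each of the 18 alternatives run (adjusted p 0.00780 to 0.0475).

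The enzymes before and after it had smaller positive values that did not pass. Hmgcs1, the synthase that makes HMG-CoA for this pathway, was at 7.50, 7.57, 7.40 and 7.20 in controls and 7.68, 7.63, 7.57 and 7.76 in knockouts, a difference of 0.24 ± 0.10 (adjusted p = 0.168). Its groups were separate by no more than 2e-04, between knockout 3 and control 2. Mvd, the decarboxylase that yields isopentenyl diphosphate, was at 6.39, 6.29, 6.60 and 6.12 in controls and 6.50, 6.74, 6.74 and 6.73 in knockouts, a difference of 0.33 ± 0.11 (adjusted p = 0.0904). Knockout 1 fell within the control range, and without control 3 Mvd passed (0.41, adjusted p = 0.0306). Mvk, mevalonate kinase, had means of 6.73 and 6.76 (95% interval of the difference -0.16 to 0.22). Acss2, which makes acetyl-CoA from acetate in the cytosol and nucleus, had means of 5.02 and 5.12 (95% interval -0.11 to 0.30).

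Of the 4 genes that carry isopentenyl diphosphate to squalene and to the longer isoprenoids, none passed, and their values pointed in both directions. Fdps, which makes farnesyl diphosphate, was at 6.43, 6.21, 6.36 and 6.33 in controls and 6.61, 6.71, 6.56 and 6.57 in knockouts, a difference of 0.28 ± 0.09 (adjusted p = 0.0572). All knockout arrays were above all control arrays. It passed after cyclic loess scaling (adjusted p = 0.0305), after quantile normalization (0.0448) and without dim genes (0.0387).

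Ggps1 uses farnesyl diphosphate to make geranylgeranyl diphosphate, a lipid anchor of membrane proteins, and so stands on a branch away from sterols. It was at 8.04, 8.07, 7.82 and 7.84 in controls and 7.67, 7.64, 7.67 and 7.52 in knockouts, all knockout arrays below all control arrays. Its difference of -0.32 ± 0.09 missed the threshold (adjusted p = 0.05004), and it passed under 6 of 18 alternatives, among them the omission of control 3 (-0.36, adjusted p = 0.0400).

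Fdft1, squalene synthase, which commits farnesyl diphosphate to sterols, was at 7.59, 7.99, 7.63 and 7.60 in controls and 7.71, 7.79, 8.06 and 8.31 in knockouts. The groups overlapped because control 2 was high, and the difference was 0.27 ± 0.14 (adjusted p = 0.310). A further, dimmer probe set of Fdft1 gave 0.21 ± 0.16. Idi1, the isomerase that makes dimethylallyl diphosphate, had means of 5.14 and 5.40, a difference of 0.26 ± 0.14 (adjusted p = 0.326), and its dimmer probe set gave 0.36 ± 0.13.

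Squalene is turned into lanosterol by Sqle, the epoxidase that is a rate-limiting step of the late pathway, and Lss, the cyclase. Sqle was at 5.91, 5.93, 6.02 and 6.005 in controls and 6.04, 6.31, 6.31 and 6.48 in knockouts. All knockout arrays were above all control arrays, knockout 1 by 0.023, and the difference was 0.32 ± 0.10 (adjusted p = 0.0698). It passed without knockout 1 (0.40, adjusted p = 0.0200) and after cyclic loess scaling (0.33, adjusted p = 0.0469). It also passed, at the very edge of the threshold, after quantile normalization (0.32). Lss had the widest control spread of the 28 genes: control 4 was at 6.92 and the other controls at 5.77 to 6.08, against 5.88 to 6.26 in knockouts. Its difference of -0.14 (95% interval -0.59 to 0.31) became 0.11 without control 4.

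Among the 9 enzymes that convert lanosterol to cholesterol, Dhcr7 and Sc5d rose and Lbr fell. Dhcr7, the reductase that makes cholesterol from 7-dehydrocholesterol and whose loss causes Smith-Lemli-Opitz syndrome, was at 7.59, 7.62, 7.68 and 7.36 in controls and 7.97, 7.91, 8.48 and 8.46 in knockouts. Knockout 3 and knockout 4 were clearly the highest, and even the lowest knockout array was 0.23 above the highest control. The change of 0.65 ± 0.14 (SE), or 1.56-fold (adjusted p = 0.0119), was the highest of the 28. It passed the threshold of 0.05 under each of the 18 alternatives, but in the main fit it did not reach an adjusted p under 0.01.

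Sc5d, the desaturase that makes the substrate of Dhcr7, was at 7.36, 7.60, 7.39 and 7.17 in controls and 7.74, 7.89, 7.83 and 8.07 in knockouts. The groups did not overlap, and the change was 0.50 ± 0.11, or 1.41-fold (adjusted p = 0.0122). It was lost when control 1, control 3 and knockout 2 were left out together (0.49, adjusted p = 0.143). The enzymes that lie next to each other at the end of the pathway, Sc5d and Dhcr7, were thus both called higher. Ebp, the isomerase that comes before them, had means of 7.74 ± 0.08 (SD, n = 4) and 7.76 ± 0.18 (95% interval of the difference -0.20 to 0.25).

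Lbr and Tm7sf2 encode the sterol C14-reductases, which remove the bond left by Cyp51. Lbr, which also sits in the inner nuclear membrane and binds lamin B and heterochromatin, was at 7.99, 7.92, 7.66 and 7.91 in controls and 7.01, 7.08, 7.02 and 7.30 in knockouts. The lowest control was 0.36 above the highest knockout, and the change was -0.77 ± 0.10 (SE), or 1.71-fold lower (adjusted p = 0.000696). It passed under each of the 18 alternatives, with values from -0.84 to -0.73. Tm7sf2, the enzyme with the same reaction, had overlapping groups with means of 7.16 and 7.12 (95% interval of the difference -0.27 to 0.19). The difference between the responses of these genes was not tested.

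The remaining enzymes of this segment had positive values that did not pass. Hsd17b7, a sterol 3-keto reductase that shares its family name with the deleted Hsd17b4 but acts in another pathway, was at 6.42, 6.56, 6.39 and 6.54 in controls and 6.76, 6.58, 6.97 and 7.13 in knockouts. The groups did not overlap, knockout 2 clearing the highest control by 0.025, and the difference was 0.38 ± 0.12 (adjusted p = 0.0605). It passed without knockout 2 (0.47, adjusted p = 0.0180) and without both control 3 and knockout 2 (0.44, adjusted p = 0.0425). It also passed without dim genes (0.38, adjusted p = 0.0398) and after cyclic loess scaling (0.39, adjusted p = 0.0483).

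Cyp51, the demethylase that opens this segment, was at 6.46, 6.55, 6.66 and 6.36 in controls and 6.50, 6.74, 6.93 and 7.15 in knockouts. Knockout 1 lay inside the control range, and the difference was 0.32 ± 0.13 (adjusted p = 0.172), or 0.43 without knockout 1 (adjusted p = 0.0405). Msmo1, the C4-methyl oxidase, and Nsdhl, which removes the carboxyl group that Msmo1 leaves, had differences of 0.22 ± 0.12 and 0.19 ± 0.13 (adjusted p = 0.334 and 0.487). In both, knockout 1 and knockout 2 were within the control range and knockout 3 was the highest array, at 8.24 for Msmo1 and 7.98 for Nsdhl.

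**Figure D2:**
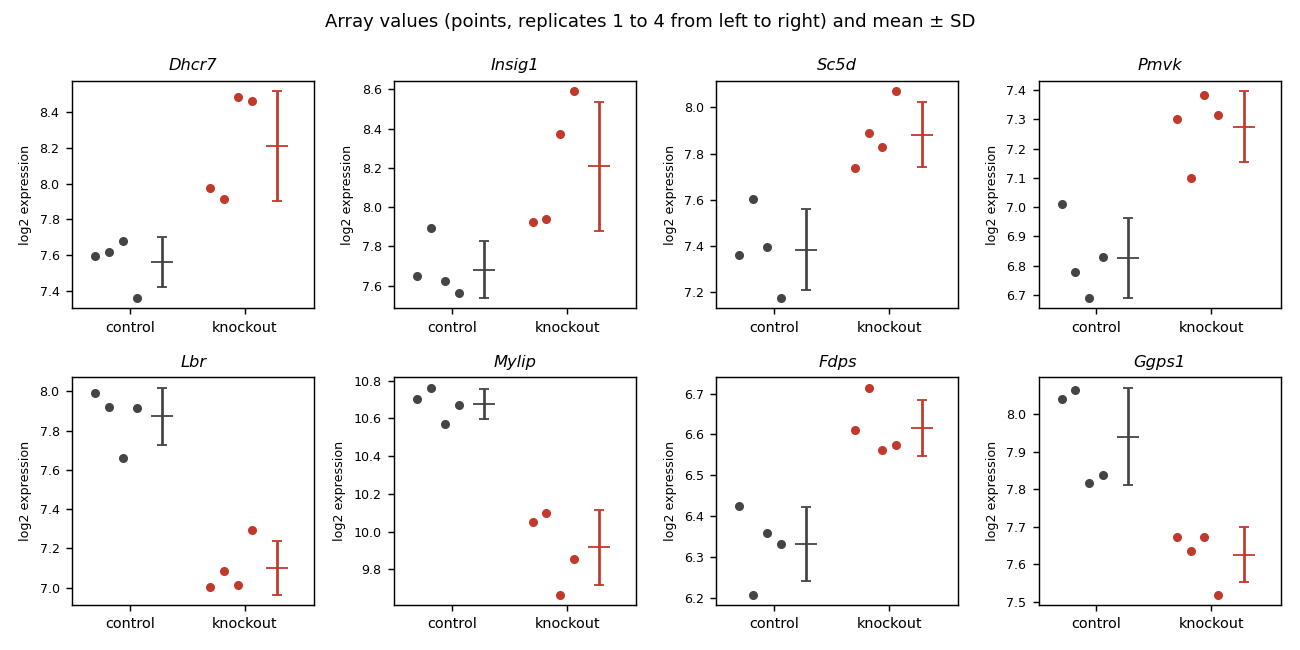
Log2 expression (vertical axis, a separate scale per gene) in each array for the 6 genes that changed and for Fdps and Ggps1, which missed the threshold by little; points are replicates 1 to 4 from left to right, and bars are mean ± SD of 4 arrays. No gene shown has overlapping groups, and at Dhcr7 and Insig1 knockout 3 and knockout 4 lie well above knockout 1 and knockout 2.

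Of the 6 measured genes for the SREBP factors and their control, Insig1 rose and the others did not pass. Insig1 encodes a membrane protein that retains Scap in the endoplasmic reticulum and is itself switched on by SREBP. It was at 7.65, 7.89, 7.62 and 7.56 in controls and 7.93, 7.94, 8.37 and 8.59 in knockouts. All knockout arrays were above all control arrays, but knockout 1 exceeded control 2 by only 0.033, and the change was 0.53 ± 0.15 (SE), or 1.44-fold (adjusted p = 0.0417). Leaving out 1 array ended the call in 5 of 8 cases: the adjusted p was 0.0971 with control 1 omitted, 0.0892 with control 3 omitted, 0.112 with control 4 omitted, 0.122 with knockout 3 omitted and 0.0976 with knockout 4 omitted. It also ended with both control 3 and knockout 2 omitted (0.0551), with control 1 omitted as well (0.157) and with arrays centred on their medians (0.0504), at changes of 0.40 to 0.60 throughout.

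Insig2, its paralogue, which answers to signals other than SREBP, had values in the opposite direction. It was at 8.23, 8.15, 7.81 and 7.90 in controls and 7.56, 7.80, 7.58 and 7.78 in knockouts, all knockout arrays below all controls, knockout 2 by 0.015. The difference of -0.34 ± 0.11 did not pass (adjusted p = 0.0810), but it did without control 3 (-0.41, adjusted p = 0.0406), without both control 3 and knockout 2 (-0.45, adjusted p = 0.0444) and after quantile normalization (-0.36, adjusted p = 0.0301) or cyclic loess scaling (-0.33, adjusted p = 0.0498). Whether the 2 Insig genes differed in response was not tested.

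Srebf2, the gene of the cholesterol-directed factor and itself an SREBP target, was at 7.89, 7.80, 8.03 and 7.87 in controls and 8.03, 8.02, 8.31 and 8.60 in knockouts. Knockout 1 and knockout 2 were no higher than control 3, while knockout 3 and knockout 4 were above every control, and the difference of 0.34 ± 0.13 did not pass (adjusted p = 0.130). Srebf1 was at 7.26, 7.31, 7.46 and 7.26 in controls and 7.42, 7.59, 7.52 and 7.76 in knockouts, a difference of 0.25 ± 0.10 (adjusted p = 0.142). Scap, the sterol-sensing escort, had means of 8.71 and 8.82 (95% interval of the difference -0.08 to 0.30). Mbtps1, the protease that makes the opening cut in the SREBP precursor, had means of 7.76 and 7.82 (95% interval -0.19 to 0.31). RNA levels do not show how much SREBP was cut, which was not measured.

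Mylip, also called Idol, is a ubiquitin ligase that sends the LDL receptor to lysosomes and is switched on by LXR when sterols are abundant. It was at 10.70, 10.76, 10.57 and 10.67 in controls and 10.05, 10.10, 9.67 and 9.85 in knockouts. Controls lay close together and every knockout array was at least 0.47 below them. The change was -0.76 ± 0.11 (SE), or 1.69-fold lower (adjusted p = 0.000900), and it passed under each of the 18 alternatives, with values from -0.86 to -0.68. Stard4, which moves cholesterol between membranes and is a known SREBP2 target, was at 6.39, 6.40, 6.74 and 6.19 in controls and 6.29, 6.47, 6.53 and 6.53 in knockouts (95% interval of the difference -0.23 to 0.28). Control 3 was the highest array at Stard4 in either group.

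The knockout arrays differed among themselves across the pathway. For each array the median was taken, over the 20 measured enzymes, of the value minus that enzyme's control mean. It was 0.07 in knockout 1, 0.09 in knockout 2, 0.35 in knockout 3 and 0.34 in knockout 4, and between -0.08 and 0.07 in the controls. Knockout 1 thus lay at the level of control 2, the highest control, while the median over all genes tested was between -0.04 and 0.01 in every array. In 9 of the 20 enzymes, both knockout 3 and knockout 4 were above both knockout 1 and knockout 2, as at Dhcr7, Cyp51, Fdft1 and Hsd17b7. The same held for Insig1, Srebf2 and Stard4. The share of all genes with this order was not counted, so it is not read as a trait of the pathway. Knockout 3 and knockout 4 were also the arrays farthest from the controls over all genes, at 26.0 and 30.2 on the first principal component. Every gene that rose or fell, Dhcr7 and Insig1 included, was separated from the controls in all 4 knockout arrays. So were some that did not pass, such as Fdps and Ggps1.

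**Figure D3:**
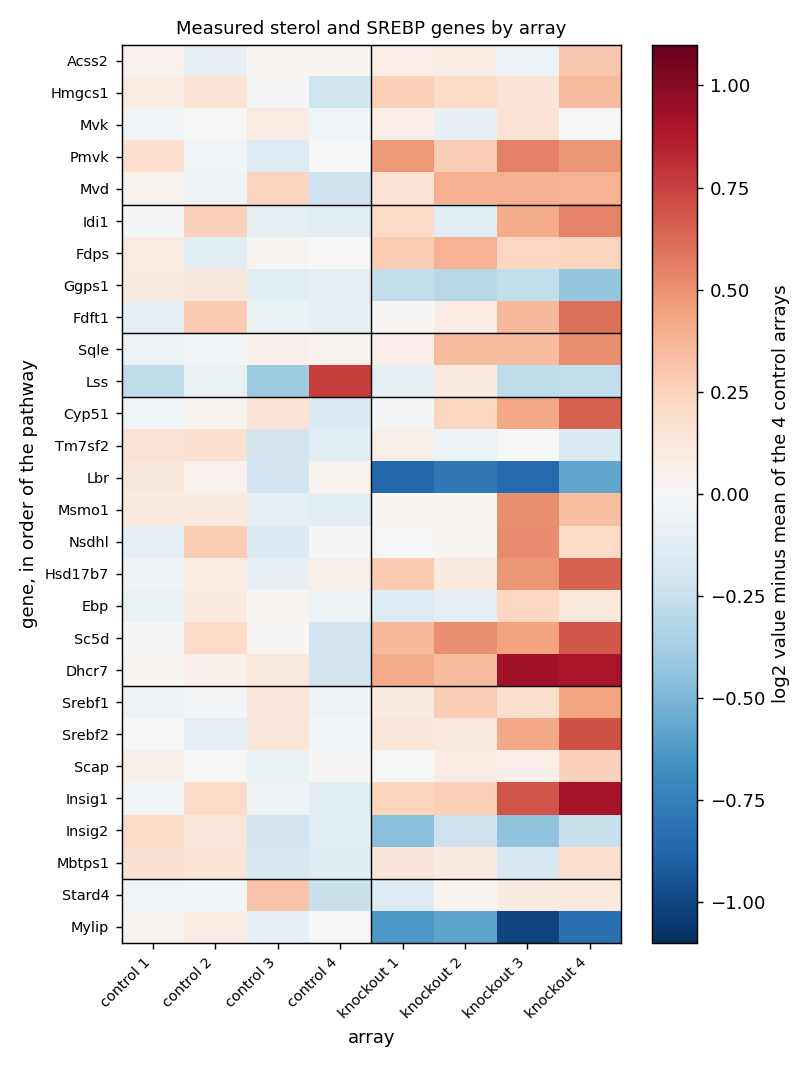
Log2 value minus the mean of the 4 control arrays (colour, red above and blue below) for the 28 measured genes (rows, in the order of the pathway, lines between the steps) in each array (columns). Red is strong in knockout 3 and knockout 4 at Dhcr7 and Insig1, the blue rows are Lbr and Mylip, and control 4 stands out at Lss (6.92).

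Genes that work beside the pathway were taken from lists written for this purpose. Of the fatty acid and NADPH genes that SREBP also drives, 5 of 16 measured were higher and 1 was lower, with a median of 0.22, where 5.38% of all genes were higher, 4.17% were lower and the median was -0.02. Acaca, acetyl-CoA carboxylase, rose from 6.87 ± 0.26 (SD, n = 4) to 8.15 ± 0.28 (adjusted p = 0.000441) and Scd1, the stearoyl-CoA desaturase, from 5.11 ± 0.21 to 6.44 ± 0.41 (adjusted p = 0.000763). Slc25a1, which exports mitochondrial citrate as the source of cytosolic acetyl-CoA, rose by 0.50 ± 0.11 (SE, adjusted p = 0.0124). Lpin1, a phosphatidate phosphatase, fell by 0.52 ± 0.11 (adjusted p = 0.0111). The changes of Acaca and Scd1, 1.28 and 1.32, were above that of Dhcr7 (0.65), while Fasn, the fatty acid synthase, did not pass (0.29 ± 0.12, adjusted p = 0.210).

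Of 23 measured genes that move, degrade or work with SREBP and its escort, 1 was higher and 1 was lower, with a median of -0.05. These counts are near the share over all genes (5.38% higher, 4.17% lower). Paqr3, a Golgi protein that binds Scap and SREBP there, was at 6.05 to 6.26 in controls and 6.79 to 7.11 in knockouts, a rise of 0.79 ± 0.10 (adjusted p = 0.000553). Rnf145, a ubiquitin ligase that acts on Scap, was at 8.89 to 9.03 in controls and 8.50 to 8.80 in knockouts, lower by -0.33 ± 0.09 (adjusted p = 0.0404). Among genes of intracellular sterol transport and esters, 4 of 12 were higher and 0 lower (all genes 5.38% and 4.17%), with a median of 0.02. They were the cholesteryl ester hydrolase Nceh1 (1.73 ± 0.17), the 25-hydroxylase Ch25h (1.38 ± 0.25), the lysosomal acid lipase Lipa (0.46 ± 0.12) and the lysosomal cholesterol carrier Npc2 (0.32 ± 0.08), with adjusted p from 0.000212 to 0.0253. At Ch25h, whose product 25-hydroxycholesterol blocks SREBP processing, knockout 3 and knockout 4 were the highest arrays (9.96 and 10.1), as at Dhcr7.

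The helpers of sterol synthesis and the users of isoprenoids gave no call by limma, where 5.38% of all genes were higher and 4.17% lower. Of all 19938 genes, 2063 above 0 and 2133 below had an unadjusted p under 0.05. Of 6 helpers, the one nearest to the threshold was Erg28, a scaffold of the C4-demethylation enzymes (0.44 ± 0.13, adjusted p = 0.0537), followed by the reductase Cyb5r3 (0.29 ± 0.19, adjusted p = 0.424), and 1 had an unadjusted p under 0.05. Of 14 isoprenoid users, Pggt1b, a subunit of the enzyme that attaches geranylgeranyl groups to proteins (-0.41 ± 0.13, adjusted p = 0.0703), and Fntb, a subunit of farnesyltransferase (0.31 ± 0.10, adjusted p = 0.0846), came nearest, and 5 had an unadjusted p under 0.05. The median was 0.11 for the helpers and -0.05 for the isoprenoid users.

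**Figure D4:**
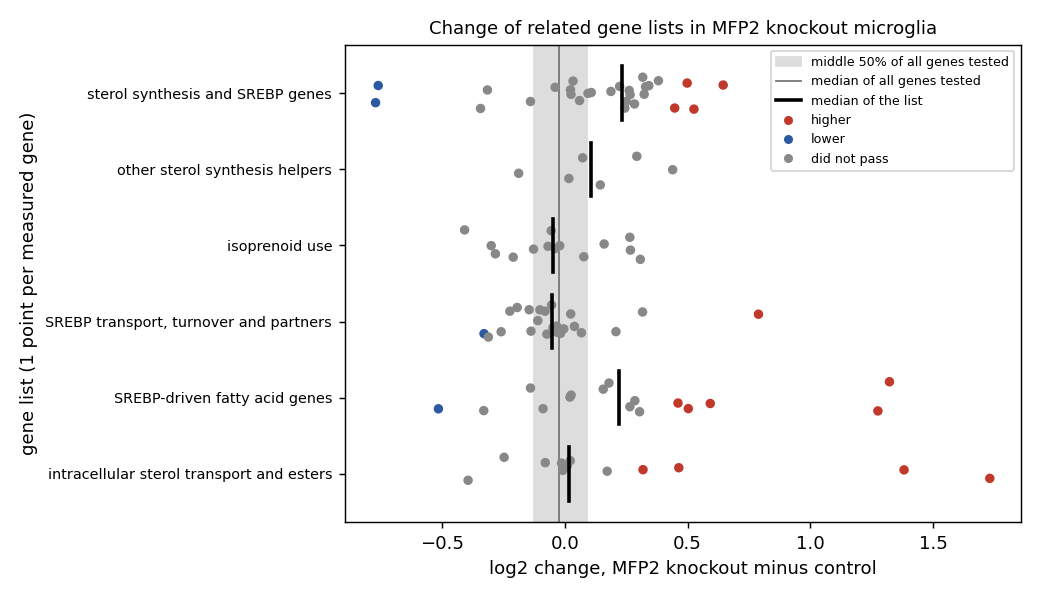
Log2 change (MFP2 knockout minus control, horizontal axis) of every measured gene of 6 lists (1 point per gene; red rose, blue fell, grey did not pass), with the list's median as a black bar, the middle 50% of all genes tested in grey and their median as a thin line. The medians of the sterol synthesis and SREBP genes (0.23) and of the SREBP-driven fatty acid genes (0.22) lie to the right of the grey band, which ends at 0.09. Beyond 1 lie 2 fatty acid genes and 2 of the sterol transport and ester list, Nceh1 and Ch25h.

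Astrocytes and oligodendrocytes make much of the brain's cholesterol, so their markers were read in the same arrays. The marker counts stand beside 5.38% of all genes called higher and 4.17% called lower by limma. At an unadjusted p under 0.05 the counts over all 19938 genes were 2063 above 0 and 2133 below. The sorted cells carried high levels of microglial genes, with Tmem119 at 12.5 ± 0.10 (SD) in controls and 11.8 ± 0.12 in knockouts and Cx3cr1 at 12.8 and 12.3. Of 11 measured microglial markers 7 were lower, both of these among them, and 0 higher, with a median of -0.45. Their summed linear signal was 36339 to 41932 in controls and 26353 to 30232 in knockouts, without overlap. Of 8 measured astrocyte markers 2 were higher and 0 lower, and 4 were higher at an unadjusted p under 0.05. Gfap was at 5.42 and 6.69 and Aldoc at 6.37 and 7.13, while S100b (6.55 and 7.13) and Slc1a2 (6.06 and 6.33) did not pass after adjustment. The other 4 did not pass either: Aqp4 was at 4.77 and 4.75, Gjb6 at 4.62 and 4.51, Slc1a3 at 8.88 and 8.78 and Slc4a4 at 5.04 and 4.99. The summed linear signal of the astrocyte list was 768 to 929 in controls and 954 to 1055 in knockouts. Of 9 oligodendrocyte and myelin markers 1 was higher, Mbp (7.16 and 7.75), and 0 lower, with 1 higher and 1 lower at an unadjusted p under 0.05. Their summed signal was 672 to 729 and 746 to 795, but 5 were above 0 and 4 below, with a median difference of 0.02. The myelin-specific Mog (5.62 and 5.38) and Opalin (4.65 and 4.84) did not pass. The sums of these 3 lists did not overlap between the groups, and their part in the sterol results was not tested. In the oligodendrocyte and myelin list the groups of 8 markers overlapped and only those of Mbp did not. Its sum is therefore not read as a shift of the whole list.

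The remaining marker lists gave mixed values, beside the same shares of all genes (5.38% higher, 4.17% lower). Of 7 border macrophage markers 4 were lower and 1 higher, with a summed signal of 645 to 1019 in controls and 398 to 646 in knockouts. The monocyte and neutrophil list had 1 of 6 lower and ranged widely among controls (summed signal 2818 to 18240, against 6816 to 11975 in knockouts), with S100a8 lowest in control 1 at 9.86. Of 6 endothelial markers 1 was higher, Flt1 (5.68 and 7.67), with summed signals of 211 to 269 and 312 to 509. Of these 6 markers 4 had differences below 0, and the median difference was -0.07. Only Flt1 had groups that did not overlap, so the endothelial sum is not read as a shift of the whole list. Neuronal (314 to 350 and 339 to 377) and lymphocyte signals (214 to 403 and 257 to 433) overlapped, with 0 of 8 and 0 of 4 called by limma and 1 and 0 at an unadjusted p under 0.05. RMA values do not reach 0, so no marker can be said to be absent, and the part of these cells in the sterol results was not tested.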

How the data were processed

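Microglial RNA was amplified from nanogram amounts with NuGEN kits and hybridised to Affymetrix whole-transcript gene arrays, per the labels' protocols. The deposited log2 values (28874 probe sets, 8 arrays, 2.04 to 13.99) are RMA output, according to processing notes of the submitters (per the labels), with no version or genome build named there. The log2 scale was inferred from the range. RMA is built to equalise the arrays' distributions, but the medians of the deposited values ranged from 6.03 (control 2) to 6.15 (control 3). It also understates changes of dim genes. The platform annotation gave 21789 probe sets with 1 symbol, 1621 with several and 5464 with none; 21698 were matched by gene number to a RefSeq table and 0 symbols changed. The number of arrays limits precision.

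MFP2 knockout was compared with control by limma 3.58.1 in R 4.3.3 (lmFit, eBayes, two-sided, no covariate, no filter), with Benjamini-Hochberg adjustment over 19938 genes. The code was tested on simulated data. The members, lists and alternatives were chosen with earlier results of these data known. All members are named; of other lists, up to 4 called genes by adjusted p, or the 2 of lowest p; markers and genes such as Fasn are named to check labels or for comparison. Alternatives were a filter on dim genes, 3 scalings, the mean of probe sets, another prior, array weights, a replicate block, arrays left out and an adjusted p under 0.01. Promoter windows came from RefSeq (GRCm38.p6), and plots from matplotlib 3.10.9.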

Additional observations from a re-analysis of the deposited data

Results flagged for a closer look

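An array far from the other 3 of its group, by Dixon's test at 95%, was found in 2 of 58 groups tested (the 28 genes and Hsd17b4, each in controls and knockouts). Chance flags about 1 in 20 groups. For Mvd, knockout 1 was at 6.50 while the other knockouts were at 6.73 to 6.74. For Fdft1, control 2 was at 7.99 while the other controls were at 7.59 to 7.63. No cause was tested.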

How the results depend on the processing

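Of 500 values of single genes under the alternatives, 457 kept direction and side of the threshold. The 4 higher genes became 7 after cyclic loess scaling, 2 without control 1, control 3 and knockout 2, and 0 by limma at an adjusted p under 0.01 (12 at an unadjusted p under 0.05). The 2 lower genes became 4 after cyclic loess and after quantile normalization. With any 1 array left out, 3 to 6 were higher and 2 to 4 lower. Direction turned only in genes that did not pass: Ebp after quantile normalization (-0.0056), Mbtps1 without control 3 and knockout 2 (-0.014), and, with 1 array left out, Mvk (-0.0074 to 0.076), Lss (-0.27 to 0.11), Tm7sf2 (-0.11 to 0.019), Ebp (-0.044 to 0.079) and Stard4 (-0.056 to 0.13). The cause was not tested. With the replicate number as a block 3 genes were higher and 2 lower, Insig1 being lost (adjusted p = 0.0666). The numbers were not taken as pairs because no label says that a number marks a shared litter or day. Same-numbered arrays had deviations correlated at 0.16, -0.06, 0.01 and 0.01, and not every array correlated best with its own number. With 4 arrays per group these correlations cannot decide whether the numbers mark pairs. Leaving out dim genes removed 4 of the 28 genes, so fewer were tested there.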
